A study of Arabidopsis thaliana with 6 samples.

Results

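The 6 genes LTP1 (AT2G38540), LTP2 (AT2G38530), LTP3 (AT5G59320), LTP4 (AT5G59310), LTP5 (AT3G51600) and LTP6 (AT3G08770) encode type 1 lipid transfer proteins of Arabidopsis thaliana. They were taken by gene ID from a table of 34262 features, and all 6 were in it. The group was chosen by measured values, the RPKM and fold changes of the same libraries seen in earlier results, so its differences between genotypes are given as a description. Where a member is said to pass the threshold of the fit over all features, that is part of the description and no independent evidence. Poly(A)-selected RNA had been sequenced from whole seedlings taken at ZT12, which is 12 h into the light period of a 16 h day with an 8 h night, after growth on 0.5-strength MS medium with 0.8% sucrose. Wild-type Col-0 was set beside lhp1-3, a mutant allele of the Polycomb-associated chromatin protein gene LHP1, and beside importin123, labelled as a triple mutant of importin alpha, the adaptor that carries proteins into the nucleus, all in the Col-0 background. Each genotype had 2 libraries, 6 in all, and the study was titled as a comparison of misregulated genes between the mutants. No label ties the libraries to separate plantings, so their spread, on which every p-value rests, may be technical. In whole seedlings, fewer cells of a type and less RNA per cell cannot be told apart.

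Lipid transfer proteins of this type are small, secreted proteins with a conserved set of cysteines, whose disulfide bonds hold a bundle of helices around a tunnel for a fatty acyl chain. Many are made in the epidermis and lie in the cell wall and cuticle, the layer of cutin and wax over the shoot. LTP1 is a classical marker of the epidermis, whereas LTP3 and LTP4 are known as genes induced by abscisic acid and drought.

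The 6 genes are compact, and 4 of them sit in pairs of near copies. In the TAIR10.1 assembly LTP2 (chr2:16128176-16129399, plus strand) and LTP1 (chr2:16130290-16131240, plus strand) follow each other with 890 bp between them. LTP4 (chr5:23924990-23925957, minus strand) and LTP3 (chr5:23928954-23929816, plus strand) stand head to head, with starts 2997 bp apart. LTP5 (chr3:19138338-19139423, minus strand) and LTP6 (chr3:2664069-2664888, minus strand) are next to no other member. LTP12, a type 1 lipid transfer protein gene outside the group, lies 1662 bp from LTP5. Each gene has 2 exons and an intron of 94 to 138 bp, and its coding sequence runs from 339 to 357 bp. The coding sequences of LTP1 and LTP2 were 82.4% identical and those of LTP3 and LTP4 84.5%, while the other pairs lay between 49.5% and 67.8%. The longest run shared by the transcripts was 40 bp for LTP1 and LTP2, 44 bp for LTP3 and LTP4, and 9 to 17 bp for the other pairs. Reads that fall in such a run cannot be given to 1 copy with certainty. How the submitters' counting treated them is not stated.

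The stretch of the coding sequence from the first to the last of the 8 conserved cysteines holds the lipid tunnel. It is shown for both pairs because the ratio of the copies in each differed between genotypes. It was read 5′ to 3′ from the TAIR10.1 genome and its RefSeq annotation, with cysteine codons (TGT or TGC) in capitals, and covers 246 to 258 bp.
LTP1: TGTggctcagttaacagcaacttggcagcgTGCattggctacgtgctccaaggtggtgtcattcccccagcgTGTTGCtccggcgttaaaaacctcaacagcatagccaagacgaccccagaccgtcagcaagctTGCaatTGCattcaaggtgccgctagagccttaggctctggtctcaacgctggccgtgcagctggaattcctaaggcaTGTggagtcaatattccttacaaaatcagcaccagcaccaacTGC
LTP2: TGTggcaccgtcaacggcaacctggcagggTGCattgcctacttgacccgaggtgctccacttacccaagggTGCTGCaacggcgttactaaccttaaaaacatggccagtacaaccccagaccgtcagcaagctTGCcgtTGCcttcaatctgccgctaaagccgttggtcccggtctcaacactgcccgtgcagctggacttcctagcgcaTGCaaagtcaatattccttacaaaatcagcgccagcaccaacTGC
LTP3: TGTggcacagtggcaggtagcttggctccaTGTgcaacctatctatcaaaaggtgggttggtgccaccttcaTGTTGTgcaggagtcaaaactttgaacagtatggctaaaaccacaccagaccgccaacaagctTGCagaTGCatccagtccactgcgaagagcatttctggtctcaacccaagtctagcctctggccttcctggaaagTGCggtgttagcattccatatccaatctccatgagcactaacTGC
LTP4: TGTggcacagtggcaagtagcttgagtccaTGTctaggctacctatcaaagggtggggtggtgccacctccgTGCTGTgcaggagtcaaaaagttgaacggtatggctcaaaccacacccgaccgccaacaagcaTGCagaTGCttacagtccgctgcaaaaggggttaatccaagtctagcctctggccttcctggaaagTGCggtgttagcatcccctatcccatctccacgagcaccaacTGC

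All 6 genes had 9 or 10 cysteine codons. In each, the last 8 were spaced by 9, 13, 0, 19, 1, then 19 to 24, then 13 codons, so only the sixth gap varied. That gap was 23 codons in LTP1, LTP2 and LTP5, 22 in LTP3, 19 in LTP4 and 24 in LTP6. LTP4, with the shortest gap, also had the fewest codons, 112, against 115 in LTP3, 117 in LTP6 and 118 in the other members.

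Levels are given as the authors' RPKM, counts divided by the length of the gene span and by the library's total. The libraries held 70137900 to 95101900 counts, and the 6 genes together took 0.0652% and 0.0748% of them in Col-0, 0.0334% and 0.0379% for lhp1-3, and 0.0394% and 0.0535% for importin123. The mutant libraries carried a higher floor of reads on the 2304 genes with the lowest mean RPKM. The median over these genes was 0.207 and 0.249 RPKM in Col-0, against 1.53 and 1.45 for lhp1-3, and 1.79 and 1.32 for importin123. The chloroplast share of counts was higher in the same libraries, from 2.95% and 3.27% in Col-0 to 14.9% and 14.5% for lhp1-3 and 18.7% and 13.7% for importin123. Each difference is therefore given from the deposited counts and again after each library's floor was subtracted. The subtracted fit also set its library scaling factors anew on the genes it kept, so genes far above the floor could shift too. Values are log2 fold changes ± SE from edgeR's quasi-likelihood fit over all 6 libraries, with 2 libraries per genotype, and a call means a Benjamini-Hochberg adjusted p under 0.05 over all features tested. The genes mutated in each line had lower values there than in Col-0. LHP1 (AT5G17690) was still detected above the floor in lhp1-3, at 3.87 and 3.21 RPKM beside 5.46 and 5.11 in Col-0. IMPA1 (AT3G06720) went from 23.6 and 22.6 RPKM in Col-0 to 3.43 and 3.06 in importin123, IMPA2 (AT4G16143) from 33.2 and 31.2 to 2.33 and 2.03, and IMPA3 (AT4G02150) from 11.2 and 10.4 to 4.16 and 3.81.

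**Figure D1:**
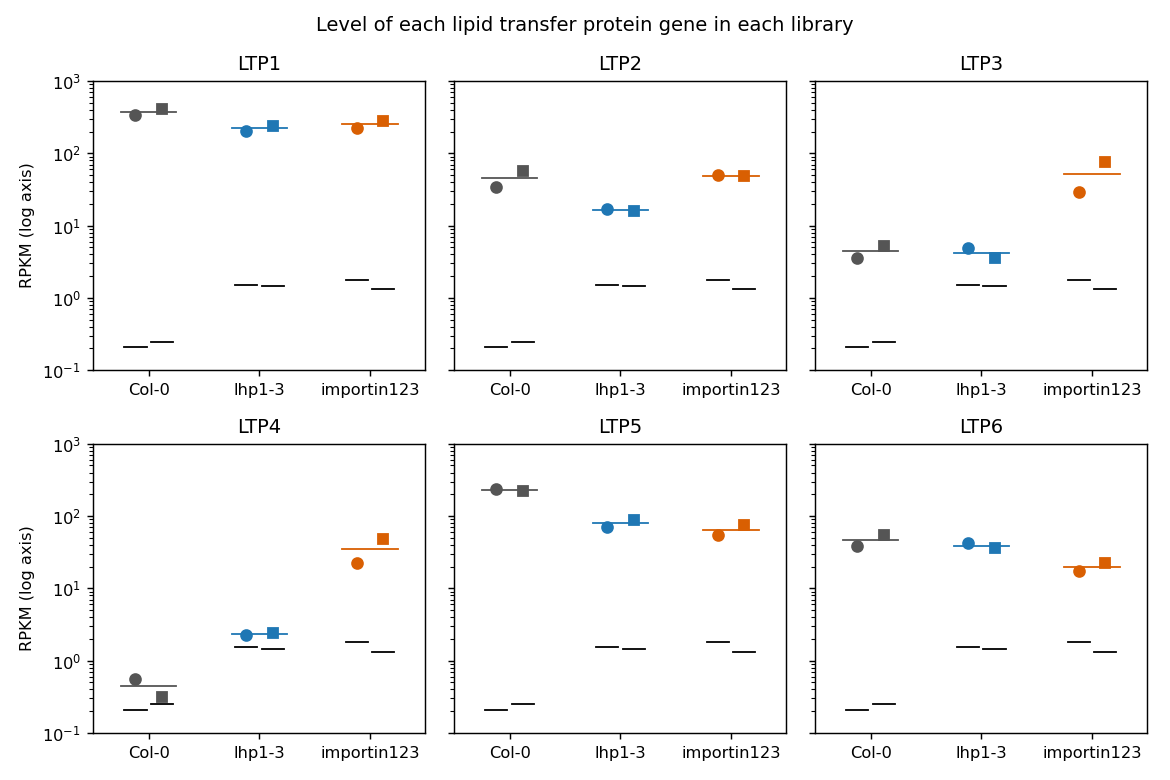
RPKM on a log axis for each of the 6 genes in Col-0, lhp1-3 and importin123. Circles are replicate 1, squares replicate 2, coloured lines the mean of 2 libraries and short black lines the floor of each library. LTP4 lies near the floor in Col-0 and lhp1-3 and between 22.7 and 47.9 RPKM in importin123.

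In Col-0, LTP1 stood first and LTP5 second. LTP1 reached 338 and 412 RPKM and ranked 126 among 27444 nuclear protein-coding genes. LTP5 reached 235 and 220 RPKM, rank 232. LTP6, at 38.7 and 54.6 RPKM, and LTP2, at 33.8 and 56.6, came next and overlapped each other. LTP3 lay much lower, at 3.52 and 5.27 RPKM and rank 12009, and LTP4 last, at 0.564 and 0.315 RPKM and rank 21355. These LTP4 values rest on 43 and 29 counts, 2.73 and 1.27 times the floor. So the copies LTP3 and LTP4 differed in Col-0, and so did LTP1 and LTP2, with no overlap between the libraries of either pair.

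The same order held in lhp1-3, where LTP6, at 42.1 and 36.0 RPKM, stood clear of LTP2, at 17.0 and 16.0, but importin123 had another. In importin123, LTP1 was again first, at 222 and 280 RPKM. LTP5, at 54.8 and 74.4 RPKM, LTP3, at 29.0 and 75.7, and LTP2, at 50.6 and 47.8, followed. LTP3 overlapped both LTP5 and LTP2, while both LTP5 libraries lay above both LTP2 libraries. LTP4, at 22.7 and 47.9 RPKM, overlapped LTP2 and LTP3, and LTP6 came last at 17.3 and 22.2. LTP3 moved from rank 12009 in Col-0 to rank 1059, and LTP4 from rank 21355 to rank 1744.

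LTP3 and LTP4 were the members with by far the highest log2 fold changes in importin123. LTP4 went from 0.564 and 0.315 RPKM in Col-0 and 2.27 and 2.40 in lhp1-3 to 22.7 and 47.9 in importin123, that is from 43 and 29 counts to 199 and 189 and to 1537 and 3311. Both importin123 libraries stood above every other library, and the lhp1-3 libraries lay at 1.48 and 1.66 times their floor. From the deposited counts LTP4 differed by 5.83 ± 0.64 between importin123 and Col-0 and by 3.84 ± 0.54 between importin123 and lhp1-3. Only 43 of 33906 features had a higher fold change than LTP4 between importin123 and Col-0, and 14 between importin123 and lhp1-3. Without each library in turn, the value against Col-0 ran from 5.19 to 6.40, and the value against lhp1-3 lost its call without any 1 of the Col-0 or lhp1-3 libraries, at 3.82 to 3.92. After subtraction LTP4 differed by 5.25 ± 0.55 between importin123 and lhp1-3, and by 4.67 to 5.66 with each library left out in turn. LTP4 passed the filter of the subtracted fit through its importin123 counts, so these values are no added support. Against Col-0 the subtracted value was 7.62 ± 0.66, which depends on what little remained above the floor in Col-0. Between lhp1-3 and Col-0 LTP4 differed by 1.98 ± 0.66 deposited and 2.37 ± 0.72 subtracted, with no call in either. AT5G59305, the next annotated gene beyond LTP4, which lies near the floor in every library, stood at 2.12 ± 0.38 as deposited.

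LTP3 had 3.52 and 5.27 RPKM in Col-0, 4.85 and 3.54 for lhp1-3, and 29.0 and 75.7 for importin123. The first pair of genotypes overlapped, and both importin123 libraries lay above them, with replicate 2 far above replicate 1. LTP3 differed by 3.05 ± 0.68 between importin123 and Col-0 from the deposited counts and by 3.83 ± 0.52 after subtraction. Between importin123 and lhp1-3 the values were 3.57 ± 0.69 and 4.16 ± 0.53, and between lhp1-3 and Col-0 they were -0.53 ± 0.68 and -0.33 ± 0.51. Between importin123 and lhp1-3 the deposited value had no call, whereas 12 of 22 other fits made one, DESeq2, both limma fits and the subtracted fit among them. The replicates of importin123 moved the size. Without replicate 2 the deposited value against Col-0 was 2.20, and without replicate 1 it was 3.71. The deposited call against Col-0 was lost without any 1 of the Col-0 or lhp1-3 libraries, with values of 2.77 to 3.39.

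The ratio of the copies differed between genotypes. Within a library, LTP3 stood 6.24 and 16.7 times above LTP4 in Col-0, 2.14 and 1.48 times for lhp1-3, and 1.28 and 1.58 times for importin123. The Col-0 ratios did not overlap those of the mutants, although the floor enters both genes and pulls a low ratio toward 1. With the floor taken from each, the ratios were 9.26 and 75.7 in Col-0, 4.48 and 2.21 for lhp1-3, and 1.31 and 1.60 for importin123. The LTP4 values left were only 0.358 and 0.0663 RPKM in Col-0 and 0.740 and 0.950 in lhp1-3, so the ratios there are uncertain. LTP4 thus came close to LTP3 in importin123 by this measure too. Whether reads of LTP3 were placed on LTP4, or the reverse, was not tested.

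LTP5 was lower in both mutants. It had 235 and 220 RPKM in Col-0, 70.9 and 87.8 for lhp1-3, and 54.8 and 74.4 for importin123. All 4 mutant libraries lay below both Col-0 libraries, and the mutants overlapped each other. In lhp1-3 the difference from Col-0 was -1.96 ± 0.19 deposited and -1.24 ± 0.15 after subtraction. In importin123 it was -2.34 ± 0.20 and -1.60 ± 0.15.

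LTP1 was lower in both mutants as deposited, and by less in the subtracted fit. Its level was 124 to 1653 times the floor, so subtraction took off few of its reads, and the fits differ in library scaling. LTP1 had 338 and 412 RPKM in Col-0, 206 and 241 for lhp1-3, and 222 and 280 for importin123. No mutant library reached the lower Col-0 library. The difference from Col-0 was -1.19 ± 0.20 deposited and -0.46 ± 0.15 subtracted in lhp1-3, and -1.11 ± 0.20 and -0.33 ± 0.15 in importin123. The call was present on the deposited counts and gone after subtraction in both mutants. Between the mutants LTP1 differed by 0.09 ± 0.19.

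LTP2, the near copy of LTP1, did not follow it. LTP2 had 33.8 and 56.6 RPKM in Col-0, 17.0 and 16.0 for lhp1-3, and 50.6 and 47.8 for importin123. The lhp1-3 libraries lay below all others, and the importin123 libraries fell between those of Col-0. LTP2 differed by -1.91 ± 0.23 deposited and -1.29 ± 0.24 subtracted between lhp1-3 and Col-0, and by 1.49 ± 0.22 and 1.64 ± 0.24 between importin123 and lhp1-3. Between importin123 and Col-0 it was -0.41 ± 0.22 deposited and 0.35 ± 0.24 subtracted, with no call in either fit. The sign thus turned between the fits, which differ in library scaling, although LTP2 stood at 28.3 and 36.1 times the floor in importin123. Other fits passed the threshold in opposite directions, at -0.58 with RLE factors, -0.59 with DESeq2 and -0.75 without Col-0 replicate 1, and at 0.78 subtracted without Col-0 replicate 2. The subtracted call in lhp1-3 was lost without either lhp1-3 library, and the deposited call between the mutants without lhp1-3 replicate 2 or either importin123 library, with values of 1.49 to 1.54. Within a library LTP1 stood 10 and 7.27 times above LTP2 in Col-0, 12.1 and 15.0 times for lhp1-3, and 4.40 and 5.85 times for importin123. These ratios, in which the scale of a library cancels, did not overlap between any 2 genotypes.

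LTP6 was lower in importin123, and after subtraction it had no call in lhp1-3. It had 38.7 and 54.6 RPKM in Col-0, 42.1 and 36.0 for lhp1-3, and 17.3 and 22.2 for importin123. Col-0 and lhp1-3 overlapped, and importin123 lay below both. Against Col-0 the difference was -1.77 ± 0.19 deposited and -1.10 ± 0.19 subtracted in importin123, and -0.71 ± 0.19 and -0.01 ± 0.18 in lhp1-3. Between the mutants it was -1.06 ± 0.19 and -1.09 ± 0.19. The direct contrast gave nearly the same size with and without the floor, and its call was lost on both sets of counts without importin123 replicate 1 and on the subtracted counts without lhp1-3 replicate 1.

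**Figure D2:**
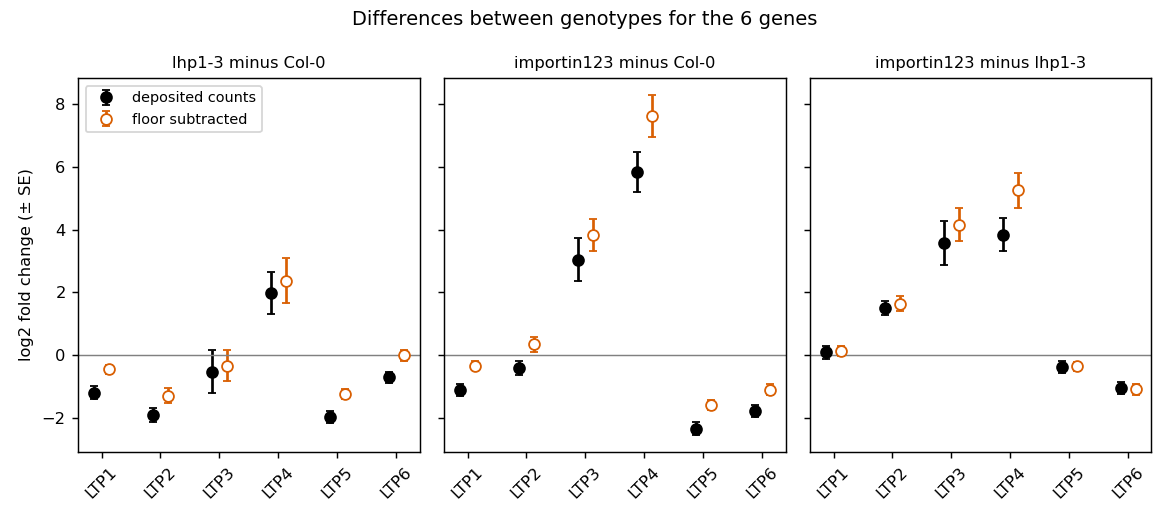
Log2 fold changes with SE (2 libraries per genotype) of the 6 genes in the 3 comparisons. Filled points are from the deposited counts and open points after subtraction of the floor. LTP3 and LTP4 stand far above 0 in both comparisons of importin123, and LTP5 below 0 in both mutants against Col-0.

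Counted together, the 6 genes were called in different directions. The RPKM of the libraries did not overlap for 4 of 6 genes between lhp1-3 and Col-0, where 85.4% of features did not, for 5 of 6 between importin123 and Col-0, where 87.5% did not, and for 4 of 6 between the mutants, where 46.1% did not. Between lhp1-3 and Col-0, 0 were higher and 4 lower as deposited (LTP1, LTP2, LTP5 and LTP6), where 75.3% of 33906 features were called in either direction, 41.8% higher and 33.5% lower. After subtraction 0 were higher and 2 lower (LTP2 and LTP5), where 16.1% of 19796 genes were called, 9.86% higher and 6.25% lower. Between importin123 and Col-0, 2 were higher (LTP3 and LTP4) and 3 lower (LTP1, LTP5 and LTP6), with 75.5% of features called, 42.3% higher and 33.2% lower. After subtraction 2 were higher and 2 lower (LTP5 and LTP6), with 41.3% called, 20.3% higher and 21.0% lower. Between importin123 and lhp1-3, 2 were higher (LTP2 and LTP4) and 1 lower (LTP6) as deposited, with 8.89% called, 2.84% higher and 6.05% lower. After subtraction 3 were higher (LTP2, LTP3 and LTP4) and 1 lower (LTP6), with 22.4% called, 8.77% higher and 13.6% lower. Since the genes were chosen with these contrasts known, nothing is read from the counts. The median log2 fold change of the 6 genes was -0.95, -0.76 and 0.79 in the 3 comparisons as deposited, beside 0.17, 0.20 and -0.03 over all features, and -0.39, 0.01 and 0.88 after subtraction, beside -0.00, 0.01 and -0.01 over all genes tested.

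The make-up of the summed level differed between genotypes. The sum of the 6 genes was 649 and 748 RPKM in Col-0, 343 and 387 for lhp1-3, and 397 and 548 for importin123. LTP5 made up 36.1% and 29.4% of it in Col-0, 20.7% and 22.7% for lhp1-3, and 13.8% and 13.6% for importin123. LTP3 made up 0.542% and 0.704% in Col-0 but 7.31% and 13.8% in importin123, and LTP4 0.0870% and 0.0421% in Col-0 but 5.71% and 8.74% in importin123. LTP1 held between 51.1% and 62.3% of the sum in every library.

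**Figure D3:**
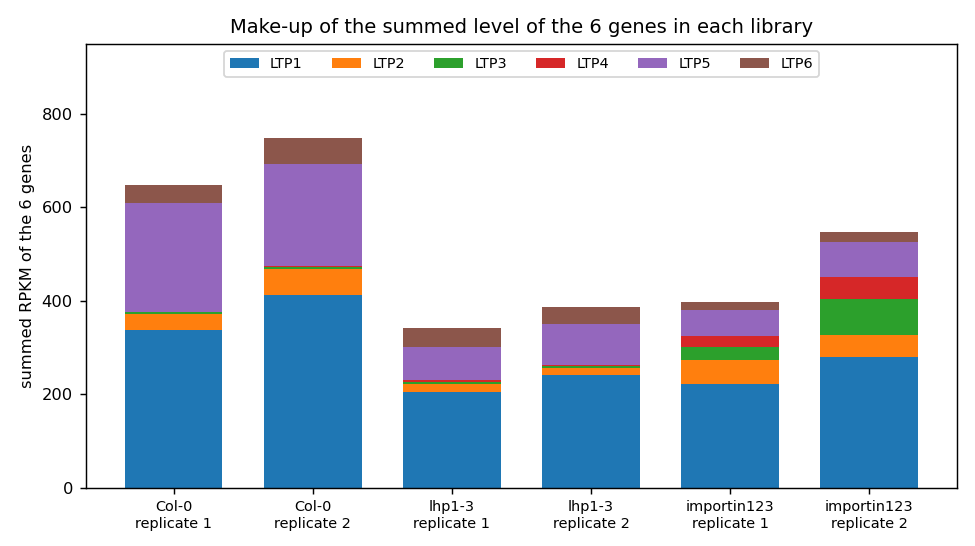
Summed RPKM of the 6 genes in each library, stacked by gene, for 2 libraries per genotype. LTP3 and LTP4, thin lines in Col-0 and lhp1-3, form wide bands in the importin123 libraries, where LTP3 is 7.31% and 13.8% of the sum.

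Of the genes next to the members, AT2G38550, 489 bp beyond LTP1, had 18.2 and 18.6 RPKM in Col-0, 14.1 and 15.2 for lhp1-3, and 13.9 and 17.6 for importin123, with subtracted differences from Col-0 of -0.16 ± 0.11 and -0.10 ± 0.11 and no call. NPU (AT3G51610), 54 bp beyond LTP5, stood at -0.26 ± 0.11 in lhp1-3 and -0.07 ± 0.11 in importin123 after subtraction, also with no call. LTP12 (AT3G51590), on the other side of LTP5, lay at the floor, with 0.0841 and 0.219 RPKM in Col-0 and 1.29 to 1.77 in the mutants, and AT5G59305, beyond LTP4, with 0.341 and 0.296 in Col-0 and 1.48 to 2.26 in the mutants. As deposited, LTP12 differed from Col-0 by 2.61 ± 0.42 in lhp1-3 and 2.88 ± 0.42 in importin123, and AT5G59305 by 2.12 ± 0.38 and 2.02 ± 0.38, all called higher, and neither was testable after subtraction. AT5G59330, beyond LTP3, ran from 1.81 to 3.65 RPKM over the 6 libraries, near the floor of the mutants. Beside LTP6, ATSIK (AT3G08760) was lower in importin123 than in Col-0 by a subtracted -0.43 ± 0.10, a call lost without Col-0 replicate 2 or importin123 replicate 1, and AT3G08780 stood at 0.12 ± 0.12 with no call.

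The 250 bp before the annotated start were read for LTP2, LTP3 and LTP4, the members that differed most between the mutants. In them 9 motifs were searched on both strands, each given here with the share of 27443 upstream windows of the same length that hold it. The abscisic acid-responsive element ACGTGNC was in 8.57% of windows, the dehydration-responsive core NCCGAC in 11.9%, the MYB site TAACTG in 8.12%, the telobox AAACCCTA in 4.49%, the TATA box TATAAA in 47.3%, the G-box CACGTG in 6.49%, the GAGA repeat GAGAGAGA in 4.91%, and the L1 box forms TAAATGCA and TAAATGTA in 1.57% and 3.00%. Capitals mark every match.
LTP2, chr2:16127926-16128175, plus strand: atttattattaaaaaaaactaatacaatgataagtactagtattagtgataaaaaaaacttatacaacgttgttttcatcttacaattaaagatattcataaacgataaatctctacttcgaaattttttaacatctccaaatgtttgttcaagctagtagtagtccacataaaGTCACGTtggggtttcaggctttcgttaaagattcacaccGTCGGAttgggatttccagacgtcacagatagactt
LTP3, chr5:23928704-23928953, plus strand: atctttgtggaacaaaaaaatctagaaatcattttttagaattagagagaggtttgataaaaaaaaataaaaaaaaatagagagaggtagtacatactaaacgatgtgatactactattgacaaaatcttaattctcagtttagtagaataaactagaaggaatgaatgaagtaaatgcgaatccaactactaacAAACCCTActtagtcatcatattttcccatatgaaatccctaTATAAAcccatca
LTP4, chr5:23925958-23926207, minus strand: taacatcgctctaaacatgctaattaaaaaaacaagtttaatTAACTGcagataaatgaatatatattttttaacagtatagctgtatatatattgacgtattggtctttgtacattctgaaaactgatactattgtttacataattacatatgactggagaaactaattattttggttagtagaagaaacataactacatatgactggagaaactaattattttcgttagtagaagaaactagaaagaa

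The LTP2 window held ACGTGNC from 76 to 70 bp and NCCGAC from 36 to 31 bp before the start, both on the opposite strand. The LTP3 window held AAACCCTA at 55 to 48 bp and TATAAA at 13 to 8 bp, and the LTP4 window TAACTG at 208 to 203 bp. The windows of LTP1, LTP5 and LTP6 held none of these letters, and the L1 boxes, the G-box and the GAGA repeat were in no member's window. A match is only a description of the sequence. The LTP4 window also carried a run of 29 bp, tacatatgactggagaaactaattatttt, in 2 copies that began 104 and 54 bp before the start. The longest repeated run in the windows of the other members was 6 to 11 bp.

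Other genes with the profile of a member over the 6 libraries were looked for among 6629 nuclear protein-coding genes with a symbol and a mean of at least 10 CPM. Likeness was the distance between mean-centred log2(CPM + 1) profiles, in which 0 is an identical profile. The values are descriptions over libraries that share depth and floor. Nearest to LTP3 were SAG29 (AT5G13170, distance 0.556), a sugar transporter, LTI65 (AT5G52300, 0.658), a classical abscisic acid-response gene, and LEA7 (AT1G52690, 0.697), a late embryogenesis abundant protein. LTI65 had 7.09 and 6.76 RPKM in Col-0, 7.94 and 6.62 for lhp1-3, and 32.5 and 73.1 for importin123, so it shared with LTP3 the higher value of importin123 replicate 2. LTI65 was higher in importin123 than in Col-0 by 2.41 ± 0.49 deposited and 3.17 ± 0.36 subtracted, and LEA7 by 2.72 ± 0.51 and 3.49 ± 0.36. Nearest to LTP4 were bHLH38 (AT3G56970, 0.749), bHLH39 (AT3G56980, 0.917) and BHLH100 (AT2G41240, 0.992), transcription factors of the iron-deficiency response. These genes and SAG29 lay below 10 CPM in Col-0 and lhp1-3 and met the required mean only through importin123, which favours profiles of this shape. bHLH38 had 0.913 and 0.660 RPKM in Col-0, 2.01 and 2.17 for lhp1-3, and 34.6 and 38.3 for importin123, and its importin123 libraries stood closer together than those of LTP4. Between members, LTP3 and LTP4 were 1.65 apart, farther than each was from its own nearest genes.

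Nearest to LTP2 were TI1 (AT2G43510, 0.444), a trypsin inhibitor, PER1 (AT1G48130, 0.544), a seed peroxiredoxin, and TIP3;1 (AT1G73190, 0.561), a seed water channel. PER1 had 20.7 and 27.0 RPKM in Col-0, 10.6 and 8.59 for lhp1-3, and 34.5 and 37.6 for importin123. The seed markers CRU3 (AT4G28520) and OLEO1 (AT4G25140), a storage globulin and an oil body protein, moved in the same directions in lhp1-3. CRU3 had 47.9 and 74.6 RPKM in Col-0, 4.36 and 3.91 for lhp1-3, and 86.9 and 175 for importin123, and OLEO1 19.3 and 20.7, 5.43 and 5.57, and 45.1 and 47.8. AP3 (AT3G54340), of the same list, went the other way in lhp1-3, with means of 0.231 RPKM in Col-0, 5.05 in lhp1-3 and 1.72 in importin123. Over the whole list of 5 anther and seed markers the summed RPKM was 68.0 and 96.3, 18.7 and 16.8, and 138 and 228. The anther markers AT5G07230 and AMS (AT2G16910) lay near the floor in the mutants and at 0.477 RPKM or less in Col-0. After subtraction 3 were testable, with 1 higher and 2 lower in lhp1-3, where 9.86% and 6.25% of all genes tested were. In importin123 3 were higher, beside 20.3% of all genes. The part of these markers in the LTP2 values was not tested.

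Nearest to LTP5 were GRP23 (AT2G32690, 0.407), a glycine-rich protein, PDX1L4 (AT2G38210, 0.464) and PDX1.1 (AT2G38230, 0.587), the latter an enzyme of vitamin B6 synthesis. GRP23 had 165 and 179 RPKM in Col-0, 52.1 and 60.7 for lhp1-3, and 50.4 and 67.6 for importin123. Among the nearest to LTP1 were the aquaporin gene PIP2E (AT2G39010, 0.144) and the transcription factor gene TCP3 (AT1G53230, 0.148). Nearest to LTP6 were LGT8 (AT1G70090, 0.246), APS4 (AT5G43780, 0.249), an ATP sulfurylase, and PPDK (AT4G15530, 0.256), a pyruvate phosphate dikinase. None of the genes named here was among the nearest of 2 members.

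The remaining type 1 lipid transfer protein genes reached no more than 37.2 RPKM in any library, the level of AT2G18370 in Col-0 replicate 1. Of 9 such genes, LTP7 (AT2G15050), AT2G18370 and AT5G01870 stood far enough above the floor to be tested after subtraction. LTP7 had 9.94 and 9.78 RPKM in Col-0, 6.11 and 5.60 for lhp1-3, and 9.50 and 10.4 for importin123. It was lower in lhp1-3 than in Col-0 by -1.20 ± 0.12 deposited and -0.84 ± 0.10 subtracted, and higher in importin123 than in lhp1-3 by 0.68 ± 0.12 and 0.90 ± 0.10. AT2G18370 was called in the same directions, at -0.47 ± 0.12 and 0.54 ± 0.12 after subtraction, and its lhp1-3 call was kept in 1 of 6 fits that left out a library. In importin123 against Col-0, 0 of 3 passed after subtraction, with LTP7 at 0.06 ± 0.10. As deposited, 5 of 9 were higher and 2 lower in each mutant, and the 5, LTP12 among them, lay near the floor of the mutant libraries. Over all features 41.8% were higher and 33.5% lower in lhp1-3, and 42.3% and 33.2% in importin123.

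GPI-anchored lipid transfer proteins are held on the outer face of the plasma membrane, and several are known to take part in wax export. Of 6 genes, 4 were testable after subtraction, and 3 fell in lhp1-3 and 3 in importin123, where 6.25% and 21.0% of all genes tested were lower. LTPG2 (AT3G43720) had 28.1 and 32.6 RPKM in Col-0, 13.4 and 17.1 for lhp1-3, and 12.1 and 12.9 for importin123. It fell by 1.81 ± 0.15 deposited and 1.20 ± 0.15 subtracted in importin123, and by 1.44 ± 0.15 and 0.83 ± 0.15 in lhp1-3, where the subtracted call was lost without lhp1-3 replicate 1. LTPG1 (AT1G27950) fell by a subtracted 0.64 ± 0.16 in lhp1-3 and 0.50 ± 0.16 in importin123, and LTPG6 (AT1G55260) by 0.63 ± 0.16 and 0.64 ± 0.16. These smaller calls were lost in 2 to 5 of the 6 fits that left out a library. Between the mutants the deposited differences of the 6 genes ran from -0.37 to 0.09, and edgeR made no call, where 8.89% of all features were called.

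In the DIR1 and EARLI1 family, whose members include lipid transfer-like proteins of systemic immunity, the mutants parted. DIR1 (AT5G48485), needed for systemic acquired resistance, had 31.7 and 35.4 RPKM in Col-0, 32.4 and 35.0 for lhp1-3, and 11.3 and 11.3 for importin123. It fell in importin123 by a subtracted 1.51 ± 0.12 against Col-0 and 1.76 ± 0.12 against lhp1-3. AZI1 (AT4G12470), induced by azelaic acid, had 12.7 and 14.6 RPKM in Col-0, 4.13 and 4.16 for lhp1-3, and 9.97 and 10.3 for importin123. AZI1 fell in lhp1-3 by 2.17 ± 0.15 deposited and 2.04 ± 0.16 subtracted, and was higher in importin123 than in lhp1-3 by 1.21 ± 0.15 and 1.65 ± 0.16. EARLI1 (AT4G12480) fell in lhp1-3 by a subtracted 2.09 ± 0.25. Of the 7 genes, 0 rose and 2 fell in lhp1-3 after subtraction, 0 rose and 4 fell in importin123, and between the mutants 2 were higher and 2 lower in importin123. Over all genes tested 9.86% were higher and 6.25% lower in lhp1-3, 20.3% and 21.0% in importin123, and 8.77% and 13.6% between the mutants. In the fits that left out a library, 2 to 3 fell in lhp1-3 and 2 to 4 in importin123, and 0 to 1 rose in each. AT4G12510 varied most between Col-0 libraries, at 114 and 19.1 RPKM.

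Of 17 genes of wax synthesis and export, 14 were testable after subtraction, with 1 higher and 1 lower in lhp1-3 and 2 higher and 9 lower in importin123, where 21.0% of all genes tested were lower and 20.3% higher, beside 6.25% and 9.86% in lhp1-3. The 2 higher genes were KCS2 (AT1G04220), at 0.76 ± 0.25, and CER7 (AT3G60500), at 0.43 ± 0.13. CER3 (AT5G57800), a partner of CER1 in alkane synthesis, had 20.3 and 20.9 RPKM in Col-0, 16.4 and 17.0 for lhp1-3, and 9.14 and 10.6 for importin123. CER3 fell in importin123 by 1.59 ± 0.14 deposited and 1.04 ± 0.10 subtracted, and LACS1 (AT2G47240), a long-chain acyl-CoA synthetase, by 1.39 ± 0.15 and 0.96 ± 0.16. ABCG12 (AT1G51500) and ABCG11 (AT1G17840), transporters of cuticle lipids, fell by a subtracted 0.69 ± 0.12 and 0.60 ± 0.13. CER1 (AT1G02205) was higher in lhp1-3 than in Col-0 by 0.55 ± 0.09 after subtraction, a call lost without Col-0 replicate 2, and stood at -0.04 ± 0.12 as deposited. In the fits that left out a library, 4 to 9 of the wax genes were lower and 0 to 1 higher in importin123 after subtraction. As deposited, 3 were higher and 11 lower in lhp1-3, and 2 and 12 in importin123, where 41.8% and 33.5%, and 42.3% and 33.2%, of all features were.

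Of 15 genes of cutin synthesis and export, all testable, 1 rose and 5 fell in lhp1-3 and 1 rose and 9 fell in importin123 after subtraction, against 0 and 9, and 0 and 12, as deposited. Over all genes tested after subtraction 9.86% were higher and 6.25% lower in lhp1-3, and 20.3% and 21.0% in importin123. As deposited the shares were 41.8% and 33.5% in lhp1-3, and 42.3% and 33.2% in importin123. In the fits that left out a library, 1 to 5 were lower in lhp1-3 and 8 to 9 in importin123. The gene that rose was AT5G33370 in lhp1-3, at 0.63 ± 0.18, and GPAT6 (AT2G38110) in importin123, at 0.37 ± 0.12. HTH (AT1G72970), needed to keep organs from fusing, had 19.5 and 25.7 RPKM in Col-0, 23.0 and 26.0 for lhp1-3, and 10.2 and 11.2 for importin123, and fell in importin123 by a subtracted 1.03 ± 0.15. GPAT8 (AT4G00400), a glycerol-3-phosphate acyltransferase of cutin synthesis, fell by 0.90 ± 0.15 in lhp1-3, a call lost without lhp1-3 replicate 1, and by 1.11 ± 0.15 in importin123. CYP86A2 (AT4G00360), a fatty acid hydroxylase, was lowest in lhp1-3, with 42.1 and 49.5 RPKM in Col-0, 16.3 and 17.5 for lhp1-3, and 31.6 and 37.1 for importin123. It fell in lhp1-3 by a subtracted 1.27 ± 0.12 and was higher in importin123 than in lhp1-3 by 1.05 ± 0.12. Across importin123 and lhp1-3, 1 cutin gene was higher and 6 were lower after subtraction, beside 8.77% and 13.6% of all genes tested. The lower genes were led by AT5G33370, HTH and DCR (AT5G23940) at -1.63 ± 0.18, -1.37 ± 0.15 and -0.96 ± 0.13.

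Among regulators of the cuticle, MYB96 (AT5G62470), an abscisic acid-responsive activator of wax genes that is known to act on LTP3 in drought, went the other way from LTP3 in importin123. MYB96 had 10.6 and 14.9 RPKM in Col-0, 8.91 and 7.89 for lhp1-3, and 6.33 and 7.99 for importin123. It fell in importin123 by 1.36 ± 0.18 deposited and 0.91 ± 0.20 subtracted, the latter call lost without importin123 replicate 1. MYB30 (AT3G28910), an activator of very-long-chain fatty acid synthesis, fell there by a subtracted 0.81 ± 0.13 and HDG1 (AT3G61150), a homeodomain factor of the epidermis, by 0.64 ± 0.11. MYB41 (AT4G28110), a stress-induced MYB factor, rose by 0.89 ± 0.24 deposited and 1.12 ± 0.34 subtracted from 1.64 and 0.998 RPKM in Col-0 to 3.88 and 3.17, and kept the subtracted call in 1 of 6 fits that left out a library. Of 11 regulators, 8 were testable after subtraction, with 0 higher and 1 lower in lhp1-3 and 1 higher and 5 lower in importin123. Over all genes tested 9.86% were higher and 6.25% lower in lhp1-3, and 20.3% and 21.0% in importin123. In the fits that left out a library, 2 to 4 regulators were lower and 0 to 1 higher in importin123, and 0 to 2 were lower in lhp1-3. The wax activators SHN1 (AT1G15360), SHN2 (AT5G11190) and SHN3 (AT5G25390) lay near the floor in the mutants, and had means of 0.231, 0.740 and 0.191 RPKM in Col-0.

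**Figure D4:**
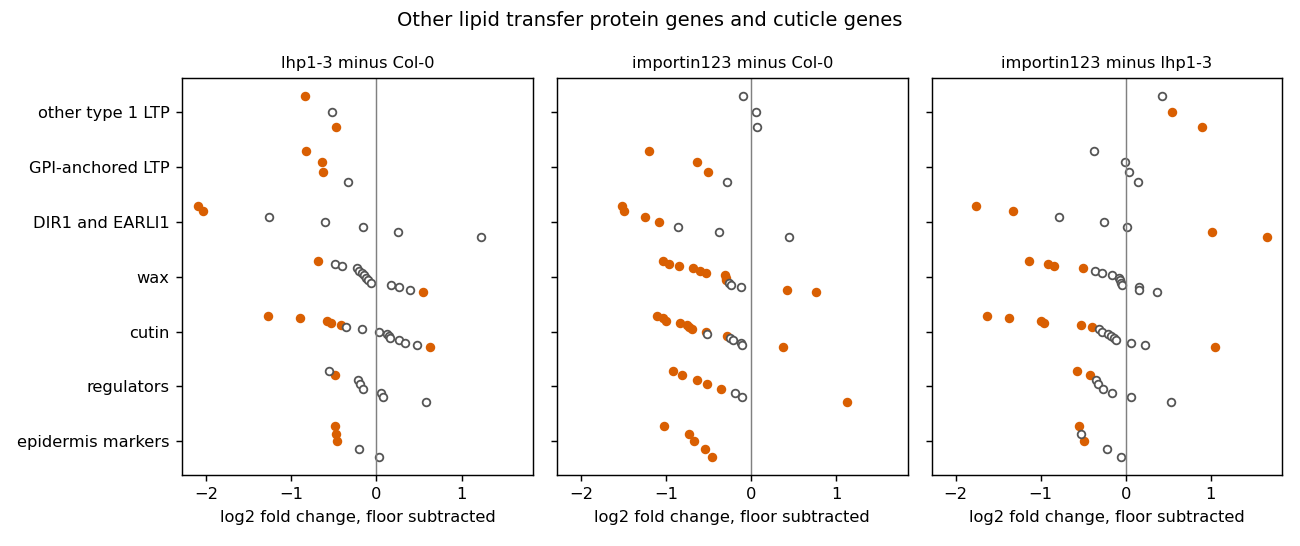
Log2 fold changes after subtraction of the floor for other lipid transfer protein genes, cuticle genes and epidermis markers, 1 point per gene, in the 3 comparisons with 2 libraries per genotype. Filled points had an adjusted p under 0.05. All 5 epidermis markers lie below 0 between importin123 and Col-0.

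The 5 epidermis markers ATML1, PDF2, PDF1, FDH and ACR4 summed to 182 and 218 RPKM in Col-0, 127 and 143 for lhp1-3, and 96.0 and 108 for importin123, and none was at 0. All 5 were lower in importin123 than in Col-0 after subtraction, at -0.46 to -1.02, and 3 of 5 in lhp1-3. With each library left out in turn, 3 to 5 were lower in importin123 and 0 to 3 in lhp1-3. ATML1 (AT4G21750), a regulator of epidermal identity, stood at -0.68 ± 0.10 in importin123 and -0.46 ± 0.09 in lhp1-3. Guard cell markers summed to 101 and 111 RPKM in Col-0, 59.2 and 65.4 for lhp1-3, and 37.7 and 51.5 for importin123, with 3 of 4 lower in importin123 after subtraction and 1 of 4 in lhp1-3. Vascular markers summed to 85.1 and 75.0, 93.8 and 90.8, and 88.4 and 102 RPKM. Root markers summed to 1330 and 1206, 1305 and 1166, and 876 and 838, mostly from PYK10 (AT3G09260, mean 1203 RPKM in Col-0). Leaf mesophyll markers summed to 10534 and 11141, 6441 and 7943, and 6156 and 7906, mostly from RBCS1A and RCA. Within both lists genes parted. After subtraction, 1 of 6 root markers was higher and 2 lower in importin123, and 3 of 5 mesophyll markers higher and 2 lower. In lhp1-3 these were 1 and 1, and 0 and 0. Over all genes tested 20.3% were higher and 21.0% lower in importin123, and 9.86% and 6.25% in lhp1-3. The part of these shifts in the values of LTP1, LTP5 and LTP6 was not tested. LTP3 and LTP4 went the other way from the epidermis markers in importin123.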

How the data were processed

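RNA-seq of 6 seedling libraries, 2 per genotype, was analysed from the authors' deposited table of counts and RPKM per feature. Per the labels' protocols, libraries were made from 500 ng total RNA by poly(A) selection. Per the submitters' processing notes, FastQC, HISAT2, SAMtools, bedtools and edgeR were used with TAIR10, and the sources used here give no version, strand or read length. The authors' deposited RPKM values divide counts by the listed gene length, introns included, and by the library's counts.

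The deposited counts were tested with edgeR 4.0.16 in R 4.3.3 (filterByExpr, TMM, robust quasi-likelihood, all 6 libraries, 33906 features, Benjamini-Hochberg adjusted p under 0.05). Each SE was derived from the fold change and the F statistic of its test. For the subtracted fit, each library's floor (median reads per kb over the lowest 10% of nuclear coding genes of at least 1000 bp, 2304 genes) was multiplied by gene length and taken from the counts, and 19796 nuclear genes with at least 2 times the floor and a mean of 10 counts were kept. The alternatives tried were nuclear features only, RLE factors, DESeq2 1.42.0, other filters, limma 3.58.1 on log2(RPKM + 1) and log2(RPKM + 0.1), a replicate block, only the 4 libraries compared, and each library left out. The last was added for the subtracted fit after the data were seen. On simulated counts, contrasting 2 libraries with 2 in a fit of all 6, edgeR recovered 100% of 50 genes changed 4-fold and 60% of 50 changed 2-fold. There were 6 false calls among 33683 features. The simulation gave every feature the same dispersion and the groups no difference in floor or chloroplast share. Its figures check the code and do not carry over to the calls on these data.

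Members and gene lists were chosen with earlier results of these data known. Named genes were the members, up to 4 called genes per list, direction and comparison by adjusted p, other list genes with their values, flanking genes, the 3 genes nearest each member's profile (1 of those nearest LTP1 is not reported here), and the mutated genes. Gene models, symbols and sequences are from RefSeq's TAIR10.1 annotation and genome, in which 32548 of 34262 features matched. Genes with no symbol there are given by ID.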

Additional observations from a re-analysis of the deposited data

How the results depend on the processing

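The deposited counts gave 25540 calls between lhp1-3 and Col-0, 25602 between importin123 and Col-0 and 3015 between importin123 and lhp1-3. Subtraction gave 3188, 8166 and 4437. With each library left out the counts ran from 20076 to 25287, from 21068 to 24625 and from 1212 to 4131, the last being 1212 without lhp1-3 replicate 1, 1351 without lhp1-3 replicate 2 and 1342 without importin123 replicate 1. The median of the 6 genes moved between lhp1-3 and Col-0 from -0.95 to -0.39 on subtraction and -0.49 in both limma fits (range with a library left out -1.15 to -0.73). Between importin123 and Col-0 it moved from -0.76 to 0.0083 on subtraction and -0.21 in both limma fits (-1.01 to -0.46), and between the mutants it was 0.79 (0.68 to 0.94). LTP2 between importin123 and Col-0 turned from -0.41 to 0.35 on subtraction, 0.17 in both limma fits and 0.025 without Col-0 replicate 2. Subtracted, it was 0.22 and 0.46 without importin123 replicate 1 or 2, 0.35 and 0.33 without lhp1-3 replicate 1 or 2, and 0.78 without Col-0 replicate 2 (range from -0.0027, and deposited from -0.75). LTP1 between the mutants ran from -0.13 to 0.33 deposited and from -0.0018 to 0.29 subtracted, and LTP6 between lhp1-3 and Col-0 from -0.28 to 0.25 subtracted, with 0.042 without lhp1-3 replicate 2. LTP3 between importin123 and Col-0 ran from 2.20 to 3.71 and lost its call in 5 of 22 other fits, those with only the 4 libraries compared or without a Col-0 or lhp1-3 library. LTP4 between the mutants lost its call in 6 of 22, LTP4 between lhp1-3 and Col-0 gained one in 8, and LTP3 between the mutants in 12. The cause was not tested. Replicate numbers did not pair the libraries (r of deviations -0.09, -0.01 and 0.01 over 14026 features), and the replicate block gave 25103, 25201 and 3017 calls. LTP4 in Col-0 is limited by its 43 and 29 counts.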
